A study of Mus musculus with 2 samples.

Results

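Type 1 conventional dendritic cells (cDC1) of mouse muscle after nerve crush were described in 2 scRNA-Seq libraries at 7 dpi. Members were chosen by their own counts: a barcode needed more than 200 genes, less than 10% mitochondrial UMIs, at least 5 UMIs of *H2-Ab1*, a UMI of at least 2 of *Xcr1*, *Clec9a* and *Itgae*, and no UMI of *Ccr7*, *Cd209a* or *C1qa*. A UMI (unique molecular identifier) marks 1 captured RNA molecule. The gate found 357 members, 0.742% of the 48143 barcodes that passed the limits on genes and mitochondrial UMIs. Of these, 195 were in the IgG library and 162 in the SPP1-nAb library.

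Both libraries came from male mice labeled C57BL/6J, aged 10 to 16 weeks, with bilateral crush of the peroneal nerve. The tibialis anterior was injected with 2 μg in 10 μL of control IgG or of SPP1-nAb, an antibody that neutralizes the secreted protein osteopontin (SPP1), every 2 days until harvest at 7 dpi. The study's methods name *S100GFP* transgenic mice, in which Schwann cells are marked by GFP, describe pooled mice without their number and sort GFP+ and GFP- cells, whereas the sample titles name GFP-positive cells. The injections went into the tibialis anterior, but the labels' collection protocol names tibialis anterior and GTN muscles, so it is not settled whether all cells came from injected muscle supplied by the crushed nerve. Each treatment had 1 library, so no difference between IgG and SPP1-nAb has a replicate check, none was tested, and treatment cannot be told apart from library. All intervals are exact 95% intervals of counting error.

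Dendritic cells take up antigen, carry it to lymph nodes and present it to T cells. The cDC1 lineage depends on the transcription factors IRF8 and BATF3 and is known for taking up dead cells and showing their antigens on MHC class I to CD8 T cells. *Xcr1* encodes the receptor for the chemokine XCL1, *Clec9a* a receptor for actin exposed by dead cells, and *Itgae* the integrin CD103. The related cDC2 lineage is better known for presentation to CD4 T cells, and mature dendritic cells gain *Ccr7*, the receptor that guides them to lymph nodes.

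The 3 genes that define the gate lie on different chromosomes of GRCm39. *Xcr1* (ENSMUSG00000060509) is on the minus strand of chromosome 9 from 123681380 to 123691094, *Clec9a* (ENSMUSG00000046080) on the plus strand of chromosome 6 from 129385825 to 129401726, and *Itgae* (ENSMUSG00000005947) on the plus strand of chromosome 11 from 72981409 to 73039917. All 3 were detected together in 92 IgG members (47.2%) and 62 SPP1-nAb members (38.3%). *Xcr1* and *Clec9a* without *Itgae* were found in 66 and 67 members. *Xcr1* with *Itgae* marked 17 and 18 members, and *Clec9a* with *Itgae* 20 and 15. These values chose the members and carry no test.

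Members made up 0.834% (0.721 to 0.959) of IgG barcodes and 0.654% (0.558 to 0.763) of SPP1-nAb barcodes. The intervals overlapped. The sort and the loading can also set such shares, and the stromal barcodes defined by *Dcn* and *Pdgfra* made up 9.48% and 3.72% of the same libraries. Members had a median of 6431 UMIs in the IgG library and 7403 in the SPP1-nAb library, and all QC barcodes had medians of 3822 and 4756. The libraries had 163 barcode sequences in common. Among these were the sequences of 3 SPP1-nAb members and 0 IgG members, and no sequence marked a member in both libraries.

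Near the edges of the gate, 124 IgG and 111 SPP1-nAb barcodes met every other condition with 1 of the 3 markers. Their *Irf8* level was 780 and 436 CPM (the gene's UMIs scaled to all UMIs of the group), beside 933 and 629 CPM in members. Few barcodes lay near the *H2-Ab1* minimum, with 3 and 2 members at 5 to 9 UMIs and 1 and 5 barcodes just below it. The exclusion of *Ccr7*, *Cd209a* and *C1qa* took out 44 IgG and 73 SPP1-nAb barcodes that otherwise qualified. Members held 70% of all QC *Xcr1* UMIs in the IgG library and 53.9% in the SPP1-nAb library. For *Itgae* the shares were 58.4% and 44.3%, and for *Clec9a* 51.1% and 39%, so most *Clec9a* and *Itgae* UMIs of the SPP1-nAb library lay outside members.

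The label was checked on genes that the gate did not use. *Irf8*, the lineage factor, was at 933 CPM in IgG members and 629 CPM in SPP1-nAb members, and at 23.2 and 21.1 CPM in cDC2. *Tlr3*, the endosomal sensor of double-stranded RNA, was at 313 and 201 CPM against 4.32 and 2.64 CPM. *Wdfy4*, which is needed for cross-presentation, was at 741 and 532 CPM against 101 and 111 CPM. For each of these genes the members of both libraries were above both cDC2 groups. Some genes of cDC2 were near 0 in members and others were not. The cDC2 gene *Mgl2* was at 3.08 and 12.7 CPM, and *Sirpa* at 0 and 7.17 CPM, whereas *Ccr2* was at 459 and 372 CPM and *Klf4* at 250 and 252 CPM. The cDC2 list summed to 905 and 897 CPM in members against 5365 and 5346 CPM in cDC2. Macrophage and monocyte markers summed to 853 and 966 CPM in members, of which *Lyz2* made up 553 and 496 CPM. Stromal markers summed to 272 and 672 CPM, and the list of 5 B cell genes to 1.54 and 0.796 CPM. Among genes often named for lymphoid cDC1, *Cd8a* had 0 and 1.59 CPM and *Cd207* 1.54 and 0 CPM.

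**Figure D1:**
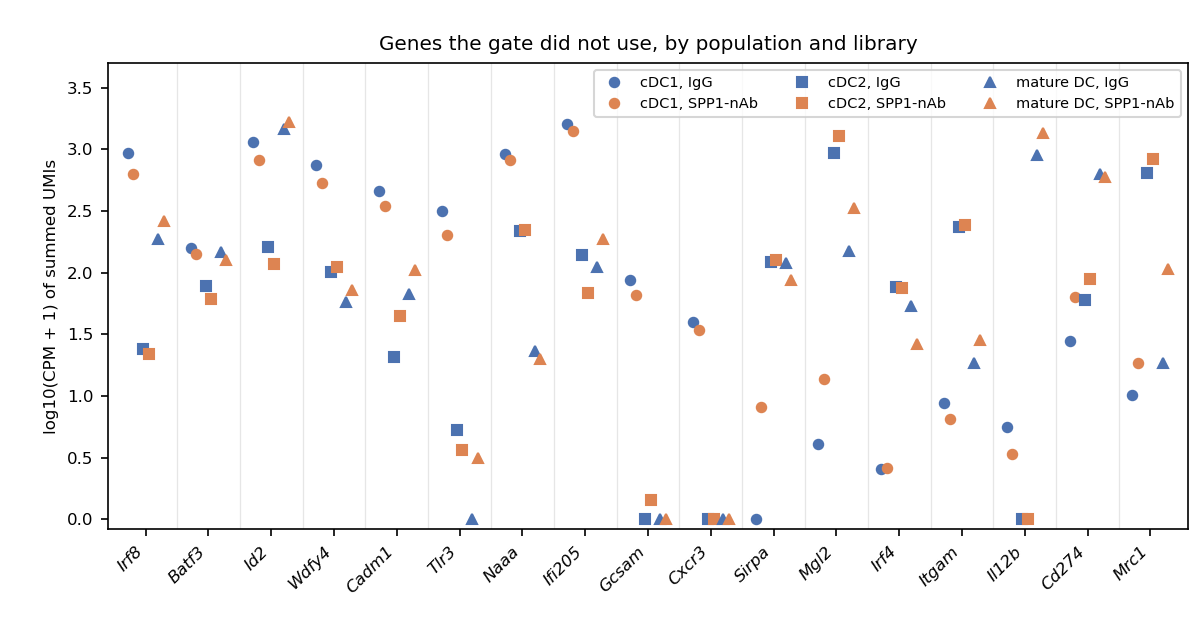
Level of 17 genes outside the gate as log10(CPM + 1) of summed UMIs, by population (circles, cDC1; squares, cDC2; triangles, mature DC) and library (blue, IgG; orange, SPP1-nAb). *Irf8* was at 933 and 629 CPM in cDC1 and 23.2 and 21.1 CPM in cDC2, while *Mgl2* was at 3.08 and 12.7 CPM in cDC1.

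To compare lineages, UMIs were summed per library for members, cDC2, mature DC and macrophages. The cDC2 needed at least 2 UMIs of *Cd209a*, mature DC *Ccr7* with at least 2 of 4 maturation genes, and macrophages *C1qa*, *C1qb* and *C1qc*. All needed at least 5 UMIs of *H2-Ab1*. Barcodes with a UMI of *Xcr1*, *Clec9a*, *Ccr7* or *C1qa* were kept out of cDC2, so it was chosen to lack RNA of 2 cDC1 markers. Mature DC had no *C1qa*, and macrophages no *Xcr1*, *Clec9a*, *Cd209a* or *Ccr7*. The 8 sums entered 1 edgeR quasi-likelihood fit with library as a term, and all genes named in a gate were left out. The 2 libraries stand in as replicates although they differ in treatment, and the populations were gated on genes of the same cells. There were 516 and 388 cDC2 barcodes in the IgG and SPP1-nAb libraries.

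Against cDC2, members had higher levels of every tested gene of the cDC1 program and lower levels of most cDC2, macrophage and chemokine genes. Of 9920 genes tested, 1137 (11.5%) were higher and 1345 (13.6%) lower in cDC1 at an adjusted p under 0.05. All 20 tested genes of the cDC1 program list of 22 were higher, with a median log2 fold change of 3.85 beside -0.01 over all genes. Of the 8 transcription factors, 5 were higher and 3 did not pass. *Irf8* differed by 5.19 on the log2 scale (SE 0.213, adjusted p = 7.63e-09) and *Id2*, a repressor that favors cDC1 over other fates, by 2.87 (SE 0.199, adjusted p = 5.52e-07). *Batf3* differed less, by 1.18 (SE 0.133, adjusted p = 2.84e-05), with 157 and 141 CPM in cDC1 against 77 and 60.3 CPM in cDC2. *Spi1*, the general myeloid factor PU.1, did not pass, with a log2 difference of -0.12 and an adjusted p of 0.489.

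Several of the genes with the largest edgeR fold changes had no UMI in cDC2 of either library. Their printed folds are lower bounds against 3 UMIs over both. *Cxcr3*, a receptor for interferon-induced chemokines, was at 38.5 and 33.4 CPM and at least 57.8-fold higher in cDC1. *Clnk*, a signaling adaptor, was at 31.6 and 19.9 CPM and at least 41.5-fold higher. *Gpr33* was at least 39-fold higher, and *Tdgf1*, outside the lists, at least 31.4-fold higher. *Gcsam*, with 87 and 65.3 CPM, and *Snx22*, with 40.8 and 26.3 CPM, were below 1 CPM in cDC2. *F930017D23Rik*, *Ttc39a*, *Gpr141b*, *Klra5*, *Mmp3* and *Il12b* completed the 12 with the largest edgeR fold changes. That order is not the order of folds of UMIs pooled over both libraries. Pooled folds were 368 for *Gcsam*, 211 for *Gpr141b* and 73.1 for *Tlr3*, a gene outside the 12, whereas *Il12b* had a bound of 5.66. Of the 12, *Mmp3* and *Il12b* stayed under 10 CPM in both libraries.

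Of 15 tested genes of the cDC2 program, 13 were lower in cDC1 and none higher. *Clec10a* and *Mgl2*, lectins of cDC2, differed by -6.97 and -7.07 on the log2 scale. *Irf4*, the factor that cDC2 need for migration, was at 1.54 and 1.59 CPM in cDC1 against 75.5 and 74.8 CPM. Pooled over both libraries, *Mgl2* was 140-fold and *Clec10a* 131-fold lower in cDC1. The largest edgeR fold changes were in genes with no UMI in members, for which only lower bounds can be given. Among them were *Cd209d* (at least 159-fold lower), *Cd209e* (at least 70.2-fold) and *Cd209c* (at least 24.8-fold). These *Cd209* genes belong to the same gene family as *Cd209a*, which selected the cDC2, and reads of such close copies may be shared. Outside that family, *Cyp7b1*, an oxysterol-modifying enzyme, was at least 32.5-fold lower, *Sirpb1b* at least 28.3-fold and *Cdh1*, encoding E-cadherin, at least 23.9-fold. *Cd300lb*, *Pilrb1*, *Gm16553*, *Dmkn*, *Trim16* and *Aqp3* were at least 14.9- to 20.5-fold lower.

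Antigen presentation differed in its parts. The MHC class II chains *H2-Aa* and *H2-Eb1* did not pass, with log2 differences of -0.01 (SE 0.0727) and 0.03 (SE 0.0748). *Ctss*, *Lgmn* and *Ifi30*, which act in the endosome, were lower in cDC1 by 1.35 to 2.17 on the log2 scale, and *H2-Ob*, part of the inhibitor of peptide loading, was higher by 1.89. In the MHC class I list, 6 of 20 genes were higher, 7 lower and 7 did not pass. *Psmb9*, an immunoproteasome subunit, was at 538 and 530 CPM against 92.4 and 111 CPM, and *Tap1*, the peptide transporter, was higher by 1.43. *Rab43*, a small GTPase used in cross-presentation by cDC1, was higher by 1.07 (SE 0.119, adjusted p = 2.57e-05). *Cybb*, the catalytic NADPH oxidase subunit, went the other way, at 14.6 and 8.76 CPM against 478 and 328 CPM.

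Members carried less chemokine and cytokine RNA than cDC2. Of 10 chemokine genes, 8 were lower and 1, *Cxcl16*, was higher, by 0.59 on the log2 scale. *Ccl9* and *Ccl6*, which attract myeloid cells, differed by -5.77 and -3.15. Of 10 tested cytokine genes, 6 were lower, including *Il1b* at 883 and 1248 CPM against 2707 and 2708 CPM, and *Il18* was higher by 1.59. *Cd80* and *Cd40*, costimulatory genes, were lower, while *Cd86* and *Cd83* did not pass. *Havcr2*, encoding the checkpoint receptor TIM-3, was higher by 3.11, with 360 and 467 CPM in cDC1 against 34.6 and 67.4 CPM. *Kit* was higher by 3.30 and *Gpr183*, an oxysterol receptor that positions dendritic cells, by 1.07. All 12 tested macrophage and monocyte genes were lower. That list summed to 4664 and 4046 CPM in cDC2 and to 21630 and 21241 CPM in C1qa macrophages. Whether the cDC2 gate also took in cells derived from monocytes was not tested.

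The counts of the remaining lists stand beside the 11.5% of all genes that were higher and the 13.6% that were lower, and several of them, such as 1 of 12 dissociation stress genes higher, were near those shares. Of 14 pattern recognition genes, 2 were higher and 6 lower than in cDC2, and the higher ones were the inhibitory lectin *Clec12a*, by 1.69 on the log2 scale, and *Unc93b1*, a chaperone of endosomal Toll-like receptors, by 0.41. Of 11 dead cell uptake genes, 1 was higher and 4 lower, and the higher one was *Cd36*, a scavenger receptor, at 159 and 132 CPM against 55.4 and 62.1 CPM. *Syk*, the kinase through which CLEC9A signals, was lower by 2.15 on the log2 scale, with 61.6 and 54.1 CPM against 274 and 261 CPM. Of 7 migration receptors, 1 was higher and 4 were lower. Of 13 growth factor and cytokine receptors, 2 were higher and 4 lower. In the interferon-response list 4 of 17 genes were higher and 5 lower, and in the dissociation stress list 1 of 12 was higher and 3 lower. Of the tested markers of other cells, 2 of 3 plasmacytoid DC, 1 of 3 neutrophil and 1 of 8 stromal genes were lower, and the 1 tested B cell gene did not pass.

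**Figure D2:**
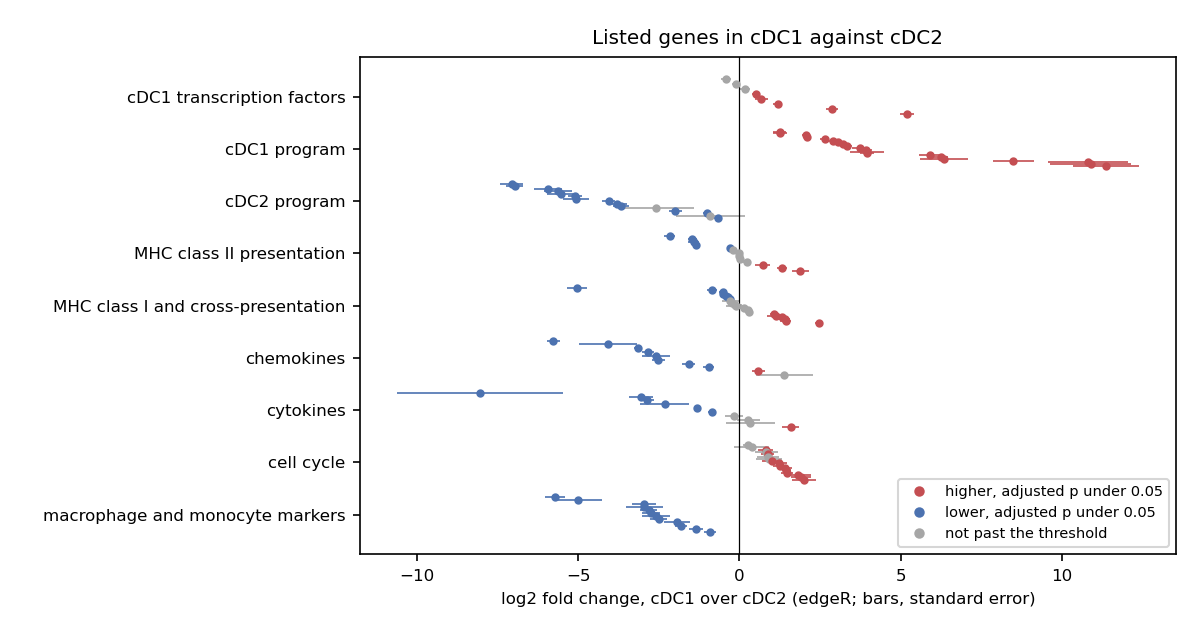
log2 fold change of cDC1 over cDC2 for each tested gene of 9 lists, 1 point per gene with its standard error, from the fit on 8 sums. All 20 points of the cDC1 program lie above 0, and 13 of 15 in the cDC2 program are called lower.

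Against mature DC, with 41 and 76 barcodes, members had less of every tested maturation gene. Of 9920 genes, 1165 (11.7%) were higher and 1386 (14.0%) lower in cDC1. All 14 tested genes of the maturation list were lower, with a median log2 fold change of -4.08 beside 0.06 over all genes, and the mature DC had been gated on genes of the same state. *Socs2*, a feedback inhibitor of cytokine signaling, had no UMI in members and was at least 305-fold lower. *Il12b*, a subunit of IL-12, was at 4.62 and 2.39 CPM against 902 and 1344 CPM. *Cd274*, encoding PD-L1, was at 27 and 62.9 CPM against 633 and 593 CPM. *B2m* and *H2-K1* were lower in members by 1.40 and 1.61 on the log2 scale, and *H2-Aa*, *H2-Eb1* and *Cd74* by 0.24 to 0.34.

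Of the cDC1 program, 16 of 20 genes were higher than in mature DC and 1 was lower. *Naaa*, a lysosomal lipid amidase, was at 923 and 822 CPM against 22 and 19 CPM, and *Hepacam2* at least 35-fold higher. *Gcsam*, *Rtl8b*, *Klhl6*, *Cxcr3*, *Timeless*, *Dkc1*, *Itpripl1*, *Med12l*, *Dynlt1a*, *Nrg2* and *Clnk* also had no UMI in mature DC, with bounds between 6.03- and 17.8-fold. *Irf8* was higher by 1.64, whereas *Id2* and *Zbtb46* were lower by 0.77 and 1.22, and *Batf3* did not pass. *Nudt17*, *Ehf*, *Slco5a1*, *Lad1*, *H2-M2*, *Papss2*, *Gm35330*, *Apol7c*, *Dscam*, *St8sia6* and *Cyp7b1* had no UMI in members and were at least 43.8- to 111-fold lower. Without the sums of the other populations in the fit, 7037 genes were tested, of which 657 (9.34%) were higher and 904 (12.8%) lower.

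A larger share of members than of cDC2 carried cell cycle genes. After each barcode was thinned to 2000 UMIs, 35 of 194 IgG members (18%, 12.9 to 24.2) and 30 of 161 SPP1-nAb members (18.6%, 12.9 to 25.5) had a UMI of at least 3 of 16 cell cycle genes. In cDC2 the shares were 5.6% (3.75 to 7.99) and 6.77% (4.47 to 9.76), and in stromal barcodes 0.33% and 2.1%. With at least 2 markers required, the counting intervals of members and cDC2 did not overlap in either library. Without thinning, the shares in members were 26.2% and 36.4%. The gates were applied before thinning, and members had medians of 6431 and 7403 UMIs against 4573 and 5302 in cDC2. Whether a gate that favors barcodes with more UMIs raised the shares was not tested. With all 3 markers required, the IgG share was 16.3% (9.42 to 25.5) and the SPP1-nAb share 8.2% (5 of 61, 2.72 to 18.1). That SPP1-nAb interval overlapped the one of cDC2.

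In the edgeR fit, 11 of 16 cell cycle genes were higher in cDC1 than in cDC2 and none was lower. *Mki67*, encoding the proliferation antigen Ki-67, was at 166 and 171 CPM in members against 69.2 and 61.6 CPM in cDC2, higher by 1.42 on the log2 scale (SE 0.206, adjusted p = 2.27e-04). *Stmn1*, a microtubule regulator, was at 213 and 283 CPM against 98.7 and 88.9 CPM. Members with cell cycle genes had lower levels of some genes than the other members of the same library. *Cadm1*, an adhesion molecule of cDC1, was at 211 CPM in those and 527 CPM in the others of the IgG library, and at 140 and 411 CPM in the SPP1-nAb library. *Cd74* was at 12629 and 17673 CPM, and 13006 and 17206 CPM. Members with cell cycle genes also had more UMIs, with medians of 8401 against 6057 and 10051.5 against 7076.

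**Figure D3:**
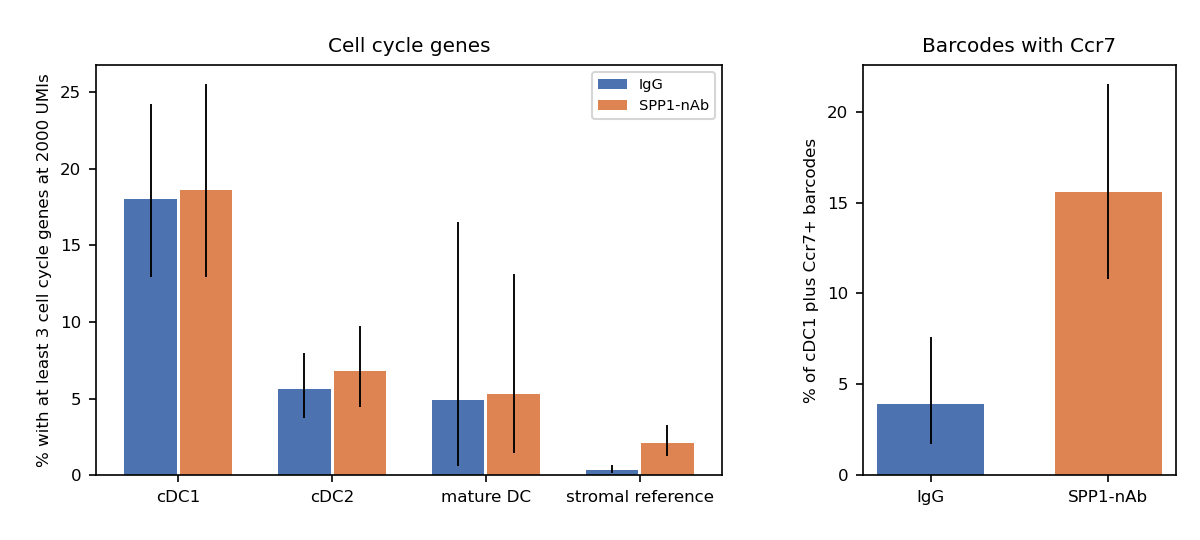
Left, percent of barcodes with at least 3 of 16 cell cycle genes at 2000 UMIs by population; right, *Ccr7*+ barcodes as a percent of cDC1 and *Ccr7*+ barcodes together. Blue, IgG; orange, SPP1-nAb; bars, exact 95% intervals. The cDC1 shares of 18% and 18.6% lie above the cDC2 shares of 5.6% and 6.77%.

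Barcodes that met the gate but for a *Ccr7* UMI, with no *Cd209a* or *C1qa*, numbered 8 in the IgG library and 30 in the SPP1-nAb library. They were 3.94% (1.72 to 7.62) and 15.6% (10.8 to 21.5) of members and *Ccr7*+ barcodes together. These intervals count barcodes of 1 library each, so they do not measure a difference between treatments. At least 2 UMIs of *Ccr7* were found in 7 of the 8 and 21 of the 30 barcodes. These shares were not thinned to equal depth, and members had medians of 6431 and 7403 UMIs. *Irf8* was at 647 and 574 CPM in the *Ccr7*+ barcodes and 933 and 629 CPM in members. *Tlr3* was at 49.8 and 71.7 CPM against 313 and 201 CPM. *Cd274* was at 448 and 274 CPM against 27 and 62.9 CPM. *Traf1*, a target of NF-κB, was at 348 and 430 CPM against 123 and 114 CPM. Maturation genes differed. *Il12b* was at 1161 and 629 CPM against 4.62 and 2.39 CPM, and was found in 25% and 23.3% of the *Ccr7*+ barcodes. *Ccl22*, a gene of the mature DC gate, was at 680 and 228 CPM against 5.39 and 4.78 CPM. *Fscn1*, an actin-bundling gene typical of mature DC, was at 0 and 4.22 CPM, and *Socs2* at 0 and 8.44 CPM. Of these barcodes, 2 in each library also met the mature DC gate.

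Between the libraries, members differed by at least 2-fold in few genes. Of 5205 genes with at least 50 UMIs, 70 (1.34%) were at least 2-fold higher in SPP1-nAb and 76 (1.46%) at least 2-fold lower, and the median log2 ratio was 0.03. Requiring 100 UMIs left 29 (0.85%) and 31 (0.909%) of 3410 genes, and thinning left 32 (1.48%) and 21 (0.971%) of 2162 genes.

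Of the 21 lists with a gene of at least 50 UMIs, the interferon response had the lowest ratio. Type I interferon induces these genes as part of antiviral defense. Their summed level was 1049 CPM in IgG members and 446 CPM in SPP1-nAb members, a log2 ratio of -1.23 (-1.38 to -1.09). The interval treats UMIs as independent and leaves out their uneven spread over members, so it is too narrow. All 9 genes of the list with at least 50 UMIs had a ratio below 0, and 6 were past 2-fold, beside 1.46% of all genes. *Isg15*, a ubiquitin-like modifier, was at 331 and 127 CPM, *Irf7* at 179 and 62.1 CPM, *Ifit2* at 74.7 and 18.3 CPM and *Rsad2*, encoding viperin, at 40.1 and 13.5 CPM. *Ifit3* had 23 UMIs in IgG members and 0 in SPP1-nAb members.

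RefSeq promoters of genes that shared this pattern are shown for the letters of the interferon-stimulated response element, searched as GAAA, any 2 bases and GAAA on both strands in the 250 bases before the start. Overlapping matches were kept. It was present in 8 of the 13 list genes with a promoter sequence and in 3.46% of all 27025 genes. Of these 8, *Gbp2* (1.54 and 1.59 CPM) and *Gbp3* (0 and 2.39 CPM) were not lower in SPP1-nAb members, and the rest were. Capitals mark matches, all sequences run 5′ to 3′ on the gene's strand, and the build is GRCm38.p6. *Isg15* lies at chr4:156200819-156201068 (minus strand) with 3 overlapping matches, *Rsad2* at chr12:26456453-26456702 (minus strand) with 1, and *Irf7* at chr7:141266425-141266674 (minus strand) with 0. *Ifit2*, whose sequences are not printed, had 0 matches in its promoters at chr19:34550444-34550693 and chr19:34550838-34551087 (plus strand). A match is a description of letters only.
Isg15: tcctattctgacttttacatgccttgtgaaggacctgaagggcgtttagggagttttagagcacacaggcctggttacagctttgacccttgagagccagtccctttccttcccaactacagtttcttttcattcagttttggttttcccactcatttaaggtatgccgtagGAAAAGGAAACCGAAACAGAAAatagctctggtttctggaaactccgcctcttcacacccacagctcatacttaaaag
Rsad2: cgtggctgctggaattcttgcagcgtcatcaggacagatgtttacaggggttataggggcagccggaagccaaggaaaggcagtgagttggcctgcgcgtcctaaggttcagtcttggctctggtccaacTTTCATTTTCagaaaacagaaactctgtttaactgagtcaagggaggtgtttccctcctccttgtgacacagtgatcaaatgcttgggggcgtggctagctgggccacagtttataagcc
Irf7: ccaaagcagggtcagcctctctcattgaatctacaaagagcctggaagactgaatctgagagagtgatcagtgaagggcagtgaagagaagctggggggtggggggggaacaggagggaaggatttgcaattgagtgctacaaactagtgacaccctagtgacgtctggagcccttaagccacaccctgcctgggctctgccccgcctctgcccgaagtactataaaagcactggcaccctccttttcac

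The RNA was unevenly spread over members. At 2000 UMIs, 30 of 194 IgG members (15.5%, 10.7 to 21.3) and 8 of 161 SPP1-nAb members (4.97%, 2.17 to 9.56) had at least 3 genes of the list, and 54.1% and 62.7% had none. In cDC2 the shares with at least 3 genes were 12.2% (9.46 to 15.4) and 8.59% (5.99 to 11.9), and the list summed to 857 and 648 CPM. It summed to 1444 and 1239 CPM in C1qa macrophages and to 1499 and 1064 CPM over all QC barcodes outside members. In mature DC it summed to 1280 and 1738 CPM, and in stromal barcodes to 488 and 763 CPM. The 5 members with the most UMIs held 30.5% of the list in IgG and 38.8% in SPP1-nAb, and without them the log2 ratio was -1.41. Requiring all 3 markers gave -0.69, and keeping barcodes with *Ccr7*, *Cd209a* or *C1qa* gave -0.57. Under these choices the summed level stayed lower in SPP1-nAb, whereas *Rsad2* alone had a log2 ratio of 0.79 with all 3 markers required.

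**Figure D4:**
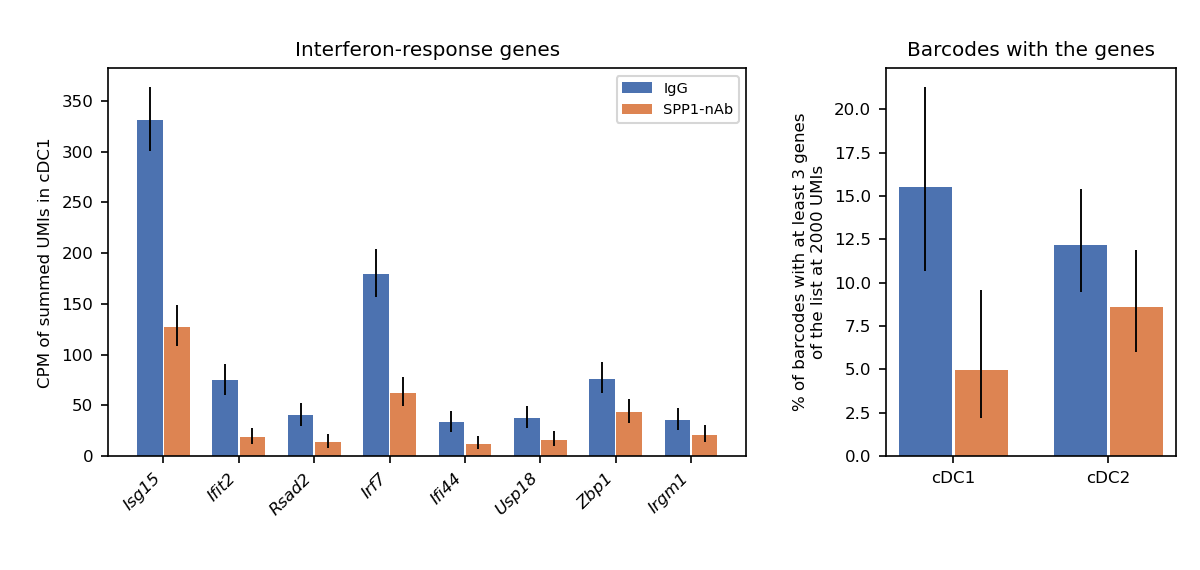
Left, CPM of 8 of the 9 interferon-response genes with at least 50 UMIs in cDC1 (blue, IgG; orange, SPP1-nAb; bars, exact 95% intervals); right, percent of barcodes with at least 3 genes of the list at 2000 UMIs. All 8 genes plotted are lower in SPP1-nAb, and the cDC1 shares are 15.5% and 4.97%.

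Other genes with large ratios showed 2 kinds of spread over members. Among the 10 lowest in SPP1-nAb, *Slfn1*, *Ifit2*, *Isg20*, *Ifi213*, *Ifi204* and *Rsad2* are known interferon-responsive genes, and their log2 ratios lay between -2.30 and -1.57. Over all QC barcodes outside members, the ratios of these genes lay between -0.99 and -0.44, and that of *Cxcl9* was 1.23. *Cxcl9*, a chemokine for CXCR3, had 87.2% of its IgG UMIs in 5 members, and its log2 ratio was 0.90 when the excluded barcodes were kept. *Tagap*, *Gm26887* and *Dag1* completed the 10. Among the 10 highest, *Fn1*, *Col3a1*, *Col1a2*, *Serping1* and *Sparc* had 87.6% to 96.4% of their SPP1-nAb UMIs in 5 members. Stromal markers summed to 272 and 672 CPM and neutrophil markers to 23.9 and 87.6 CPM, and 10 IgG and 6 SPP1-nAb members carried at least 5 stromal or 3 neutrophil or T and NK UMIs. Without those members the stromal ratio was 0.14 and *Sparc* was at -0.24. *Fn1*, *Col3a1*, *Serping1* and *Col1a2* stayed above 0, at 1.01, 0.87, 0.54 and 0.42, with 21 to 31 UMIs left for each. *Dag1* moved from -1.76 to -0.63. The part of RNA from other cell types in other values was not tested.

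*Plet1*, *Arap2*, *Nup210l*, *Phtf1* and *Serpinb9* were spread more widely. *Plet1*, a membrane protein, was found in 12 IgG members (6.15%) and 44 SPP1-nAb members (27.2%), with a log2 ratio of 2.25. Without members with UMIs of other types it was 2.30. *Serpinb9*, an inhibitor of granzyme B, was found in 12 and 27 members.

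Lineage factors were lower in SPP1-nAb, by less than 2-fold. The transcription factor list summed to 3083 and 2366 CPM, a log2 ratio of -0.38 (-0.45 to -0.31), and 6 of 8 genes had a ratio below 0. *Irf8* had a ratio of -0.57 (-0.70 to -0.44) and *Id2* of -0.48 (-0.59 to -0.36). *Nfil3*, which acts upstream of *Id2*, went the other way at 78.6 and 128 CPM. The cDC1 program summed to 7147 and 6126 CPM, a ratio of -0.22 (-0.27 to -0.18). The MHC class II list, at 33311 and 33592 CPM, differed by 0.01 (-0.01 to 0.03). The MHC class I list had a ratio of 0.05, costimulation 0.04, the cell cycle 0.14, dead cell uptake -0.11, pattern recognition -0.15 and the mature DC program 0.20. Dissociation stress genes summed to 5541 and 4910 CPM in members and to 9323 and 5876 CPM in C1qa macrophages.

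Receptors and cytokines included several higher values in SPP1-nAb, with list ratios of 0.40 for cytokines, 0.26 for migration receptors and 0.20 for growth factor and cytokine receptors. *Csf2rb*, the shared receptor chain for GM-CSF, was at 122 and 290 CPM, a log2 ratio of 1.25 (0.98 to 1.53), and was detected at 2000 UMIs in 18% and 34.8% of members. In cDC2 it was at 188 and 298 CPM. *Cxcr4*, the receptor for CXCL12, was at 52.4 and 117 CPM. *Il1b* was at 883 and 1248 CPM, a ratio of 0.50 (0.39 to 0.61). The chemokine list had a ratio of 0.22 (0.10 to 0.33), and 0.08 (-0.04 to 0.21) without members with UMIs of other types. Within it *Cxcl2* was at 73.9 and 156 CPM, with 67.3% of its SPP1-nAb UMIs in 5 members and a ratio of -0.11 without members with UMIs of other types, while *Cxcl9* had a ratio of -2.21. *Spp1* itself was at 47.8 and 95.5 CPM in members, and at 435 and 658 CPM in C1qa macrophages of the same libraries. Free RNA from such cells was not separated from members' own RNA. Among receptors that bind SPP1, *Cd44* was at 421 and 512 CPM and *Itga4* at 226 and 165 CPM.

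**Figure D5:**
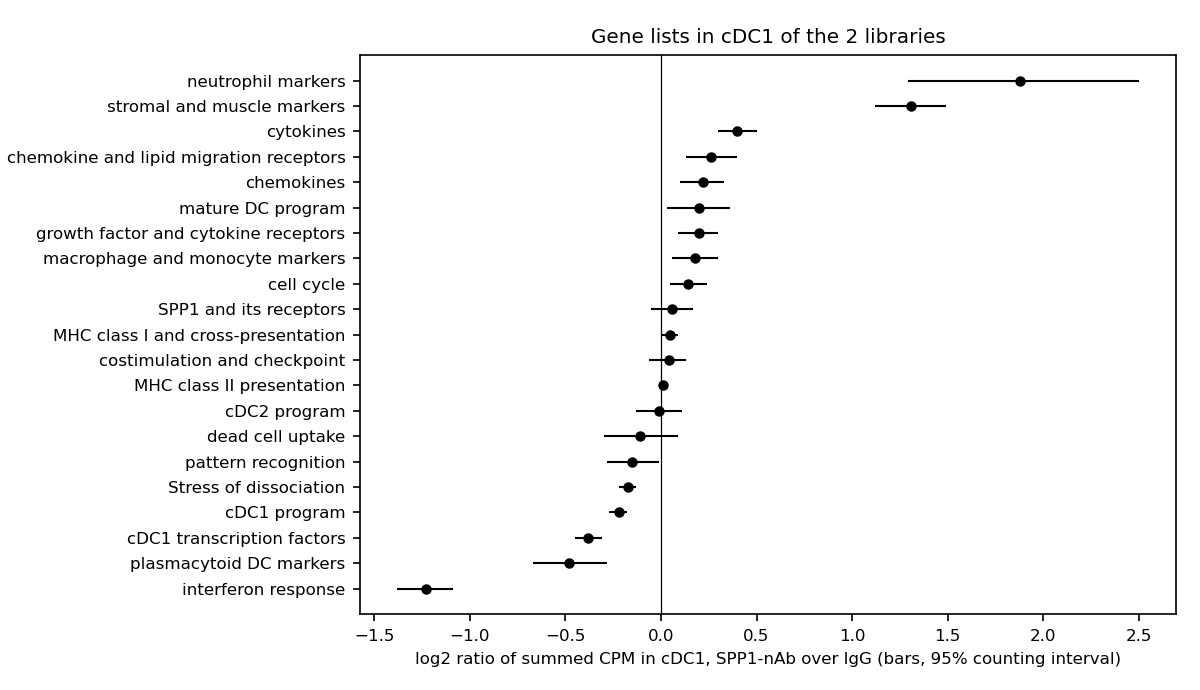
log2 ratio of the summed CPM of each gene list in cDC1, SPP1-nAb over IgG, for lists with a gene of at least 50 UMIs (points, ratio; bars, exact 95% counting interval). The interferon response lies at -1.23, the cDC1 transcription factors at -0.38 and MHC class II presentation at 0.01.

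The partner of XCR1 was sought in the same libraries. *Xcl1*, its ligand, had 411 UMIs over IgG barcodes and 735 over SPP1-nAb barcodes. Barcodes with a UMI of at least 2 of the T and NK genes *Cd3d*, *Cd3e*, *Cd3g*, *Trac*, *Nkg7*, *Klrb1c* and *Ncr1* numbered 45 and 77 and held 52.1% and 95.8% of these UMIs, and 64.4% (48.8 to 78.1) and 62.3% (50.6 to 73.1) of them had a UMI of *Xcl1*. Members had 0 and 37.4 CPM of *Xcl1*, and the list of ligands for cDC1 summed to 3.85 and 47.8 CPM in them. Without members with UMIs of other types, of which 1 SPP1-nAb member held 97.1% of the T and NK marker UMIs, the list was at 4.17 and 9.24 CPM, so the *Xcl1* value is not read as expression by cDC1. *Flt3l*, the growth factor for dendritic cells, was at 8.07 and 5.01 CPM over all QC barcodes, and its receptor *Flt3* was at 144 and 120 CPM in members against 62.9 and 52.4 CPM in cDC2.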

How the data were processed

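The deposited values were counts of UMIs per gene and barcode, which the authors made with CellRanger (8.0.0 per the labels, 9.0.1 per the file headers) and did not normalize. The labels name GRCm39, and the study's methods name GRCm39 and GRCm38. Of 32287 features, 31674 matched GENCODE M39 identifiers. Ambient RNA was not removed. Doublets were kept, and the 10% highest doublet scores were removed as an alternative.

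Levels are CPM of UMIs summed over a population. Ratio intervals came from the binomial split of UMIs between libraries. They treat UMIs as independent and do not include the spread over members or mice. Cell cycle and interferon-list shares were taken after thinning to 2000 UMIs. Other shares, among them those of members and of *Ccr7*+ barcodes, were not thinned unless stated. Lineages were tested with edgeR 4.0.16 (quasi-likelihood, TMM, filterByExpr, Benjamini-Hochberg, threshold 0.05) on 8 sums with library as a term, and the no replicate block fit and DESeq2 1.42.0 were alternatives. Fits were tested on simulated data. With 3 residual degrees of freedom, p-values rest on how far differences between populations varied across the 2 libraries. The libraries differ in treatment, and that variation may also be technical.

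Between libraries, named genes were the 10 per direction with the largest ratio (at least 50 UMIs, in at least 20 members). Per lineage contrast, they were the 12 per direction with the largest edgeR fold change among genes past the threshold. Those 12 also had the same direction in both libraries. Mitochondrial, ribosomal, hemoglobin, immunoglobulin and sex-linked marker genes were left out. Other genes came from 24 lists, and a few of the lists' genes are not reported here by name. The members and lists were chosen with earlier results of these data known.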

Additional observations from a re-analysis of the deposited data

How the results depend on the processing

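Shares of members were 0.393% (IgG) and 0.25% (SPP1-nAb) with all 3 markers, 1.02% and 0.949% with the exclusions dropped, and 0.487% and 0.328% after thinning; the other choices stayed within the counting intervals. Genes past 2-fold numbered 29 higher and 31 lower at 100 UMIs, 190 and 251 at 20 UMIs, 37 and 50 with all 3 markers, and 32 and 21 after thinning, where fewer genes could be tested. The transcription factor list was at -0.48 with all 3 markers. The interferon list was at -0.69 with all 3 markers, -0.57 with the exclusions dropped and, chosen after seeing the data, -1.41 without the 5 members with most of its UMIs. Cell cycle shares were 26.2% and 36.4% without thinning, 12.4% (SPP1-nAb) at 5 genes and 8.20% (SPP1-nAb) with all 3 markers. Against mature DC, 657 genes were higher and 904 lower with only the sums of both types, where 7037 genes were tested.

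Ratios changed sign for the MHC class I list (-0.01 after thinning), the cell cycle list (-0.36 with all 3 markers), macrophage markers (-0.01 with all 3 markers, -0.03 after thinning), neutrophil markers (-2.46 with all 3 markers), the ligand list (-0.14 with all 3 markers) and stromal markers (-2.06 with all 3 markers, -0.22 with doublets removed, -0.49 without the 5 members with most UMIs). With all 3 markers, *Col1a2* was at -1.21, *Serping1* at -0.43, *Sparc* at -1.0 and *Rsad2* at 0.79. *Sparc* was at -0.78 with doublets removed and -0.24 without members with UMIs of other types, and *Cxcl9* was at 0.90 with the exclusions dropped. The cause of these changes was not tested.

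Of 283 values for named genes of the lineage contrasts under alternatives, 282 kept direction and threshold; *Klra5* did not pass in DESeq2 (adjusted p = 0.336). The lineage fit paired the populations within each library through the library term. With no replicate block, 817 genes were higher and 1011 lower against cDC2 and 1018 higher and 1216 lower against mature DC. No paired analysis was possible between the treatments because each had 1 library.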
